A study of Mus musculus with 4 samples.

Results

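Purine, pyrimidine and folate metabolism was described with 46 genes of the enzymes that build, recycle and balance nucleotides. A gene was included where a probe set named it and no other gene, and 45 of the 46 genes were measured in this way, of 19938 genes in all. *Impdh2* had no such probe set and was not analysed here. Genes were listed by function, though with earlier results of these data known. Where a gene had several such probe sets, the one with the highest mean over the arrays was used. RNA came from myeloid-derived suppressor cells (MDSC, immature myeloid cells that restrain T cells) of the bone marrow of 5-month-old mice after 10 generations of backcross to FVB/N, and 2 arrays of *lal+/+* (wild type) mice were compared with 2 arrays of *lal-/-* mice, the lysosomal acid lipase knock-out (LALKO in the labels). The cells were labelled CD11b and Gr-1 positive, while the methods describe magnetic selection with an anti-Ly6G antibody. The knock-out is not limited to a cell type, so the marrow cells and the tissues around them both lacked the lipase. The methods give n = 5 for the mice of the RNA isolation and do not say how these mice map onto the arrays. Whether the arrays of a genotype came from separate mice is not stated, so p-values measure only the spread between these arrays.

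Purine bases are built stepwise on phosphoribosyl pyrophosphate (PRPP) up to inosine monophosphate (IMP), from which AMP and GMP are made, and pyrimidines are built from carbamoyl phosphate and aspartate up to UMP and CTP. Salvage enzymes instead return ready bases and nucleosides to the nucleotide pool. Ribonucleotide reductase and thymidylate synthase make the precursors of DNA and are known to be most active in dividing cells, and the folate cycle supplies the carbon units for purines and thymidylate.

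Values are log2 levels after quantile normalization of the RMA values that the authors deposited, and a fold change is the *lal-/-* minus the *lal+/+* mean on that scale. Genotypes were compared with limma, and a gene was called higher or lower where its adjusted p lay under 0.05 and its fold reached 2. All 2154 genes past the fold threshold also passed the adjusted p, so in these data the fold decided the call. Fold changes are given with a standard error (SE) or an interval of 95% from that fit.

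*Lipa*, the disrupted gene, read 9.50 and 9.05 in *lal+/+* and 7.37 and 7.49 in *lal-/-* cells. The preparations differed in the cells they held. All 9 measured B cell markers were lower in *lal-/-* (median log2 fold change -3.48) and so were 7 of 9 monocyte and macrophage markers (median -2.19), while 5 of 5 primary granule genes of promyelocytes (median 3.65) and 6 of 7 secondary granule genes (median 1.67) were higher. Of 7 T cell markers 3 were lower and 1 higher (median -0.64), of 6 mature neutrophil markers 2 were lower and 1 higher (median 0.040), of 5 plasma cell markers 2 were lower, and of 5 erythroid markers 0 were called. The mean level of the B cell markers was 9.64 and 9.45 in *lal+/+* against 6.15 and 6.03 in *lal-/-* cells, and that of the monocyte and macrophage markers was 9.38 and 9.20 against 6.80 and 6.86. These shifts run alongside every difference between the genotypes given here, and their part in it was not tested. In such bulk samples, fewer cells of a type and less RNA per cell cannot be told apart.

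Of the 45 measured genes, 8 were higher in *lal-/-* cells, 1 was lower and 36 were not called. The higher genes were *Hprt*, *Rrm2*, *Ampd3*, *Tyms*, *Rrm1*, *Cmpk1*, *Tk2* and *Ampd2*, and the lower gene was *Prps2*. Of all genes tested 7.56% were called higher and 3.24% lower. The median log2 fold change was 0.21 over the 45 genes and 0.085 over all genes. A further 14 genes had an adjusted p under 0.05 with a fold under 2, of which 9 lay on the higher side (*Aprt*, *Gda*, *Ctps2*, *Uck1*, *Dck*, *Rrm2b*, *Dtymk*, *Shmt2* and *Mthfd2*) and 5 on the lower side (*Paics*, *Adsl*, *Atic*, *Nme1* and *Mthfd1*). Without a fold threshold 23 of the 45 genes therefore passed, against 29.6% of all genes, of which 19.8% were on the higher side and 9.85% on the lower side.

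**Figure D1:**
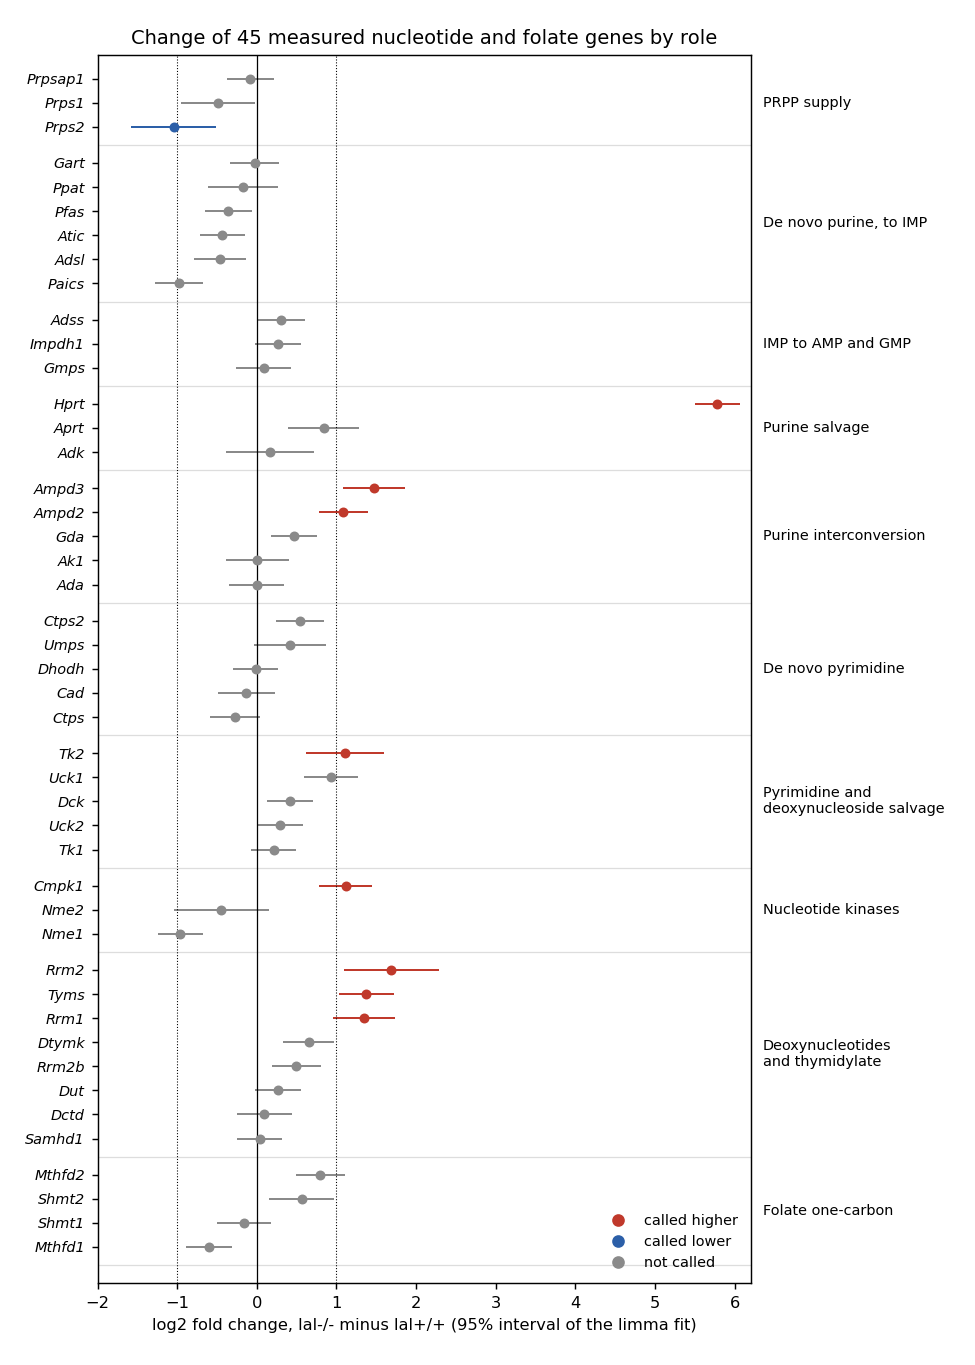
Log2 fold change of *lal-/-* against *lal+/+* cells for the 45 measured genes, grouped by role, with bars for the 95% interval of the limma fit and dotted lines at a fold of 2. *Hprt* stands alone at 5.78, the other called genes on the higher side lie between 1.09 and 1.69, and *Prps2* is the single gene called lower.

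*Hprt* encodes the phosphoribosyltransferase that returns hypoxanthine and guanine to IMP and GMP. It read 4.94 and 4.91 in *lal+/+* and 10.68 and 10.74 in *lal-/-* cells. The arrays of each genotype lay within 0.1 of each other, and the genotypes did not overlap. The log2 fold change was 5.78 (interval 5.50 to 6.07, adjusted p = 1.39e-05 from limma), the largest of all 19938 genes. As a gauge of a silent gene, 1035 olfactory receptor probe sets had a median of 4.95 in *lal+/+* cells. *Hprt* lay at that level there, so the size of the fold rests on this floor. Only 1 probe set measured *Hprt*, and missing transcript and failed detection in *lal+/+* cells cannot be told apart. Of the 5 nearest measured genes on each side of *Hprt* on the X chromosome, 0 of 10 were called, with log2 fold changes between -0.61 and 0.25. These neighbours hold 7 microRNA genes, and all 10 lay under the 95th percentile of the silent probe sets in *lal+/+* cells (6.79), so they carry little signal there. The nearest protein-coding ones, *Phf6* and *Ccdc160*, had log2 fold changes of 0.23 and 0.15 and adjusted p of 0.507 and 0.470 from limma.

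The sequence upstream of *Hprt* is shown because this gene differs most, with matches to short promoter motifs in capitals. It covers the 250 bases before the transcription start in the RefSeq annotation of GRCm38.p6, chrX:52987828-52988077 on the plus strand.
Hprt: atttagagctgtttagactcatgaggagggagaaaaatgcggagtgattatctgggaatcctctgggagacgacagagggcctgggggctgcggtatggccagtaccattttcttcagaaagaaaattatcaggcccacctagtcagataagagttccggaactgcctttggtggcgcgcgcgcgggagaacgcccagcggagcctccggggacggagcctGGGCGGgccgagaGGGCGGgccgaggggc
The capitals mark a GC box (GGGCGG, or CCGCCC on the other strand), of which this window holds 2 copies close to the start.

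**Figure D2:**
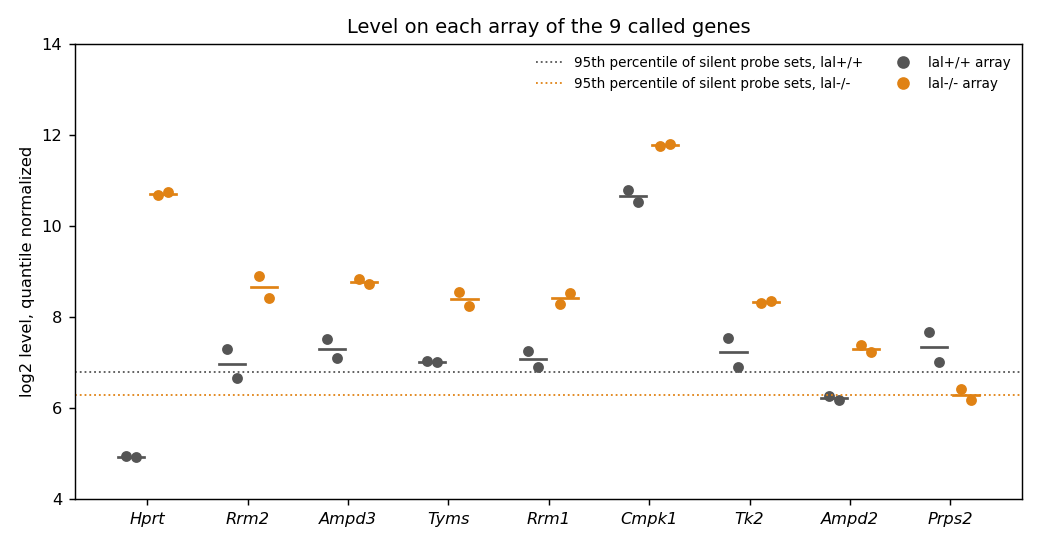
Log2 level of the 9 called genes on each of the 4 arrays, 1 point for each array, with genotype means as bars and, for either genotype, a dotted line at the 95th percentile of silent (olfactory receptor) probe sets. The genotypes do not overlap in any of the 9 genes, and *Hprt* in *lal+/+* cells, at 4.93 on average, and *Ampd2* in *lal+/+* cells, at 6.22, lie under that line. *Prps2* in *lal-/-* cells, at 6.291 on average, lies just above the line of that genotype at 6.286.

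The other purine salvage genes had smaller values than *Hprt*. *Aprt*, the adenine phosphoribosyltransferase, read 7.43 and 7.74 in *lal+/+* and 8.65 and 8.20 in *lal-/-* cells (log2 fold change 0.84, SE 0.19, adjusted p = 0.0152 from limma) and stayed under the fold threshold. It passed that threshold with the values as deposited (1.07), with all arrays set to a common median (1.25) and without *lal-/-* replicate 2 (1.06). *Adk*, the adenosine kinase, read 6.82 and 6.10 in *lal+/+* and 6.55 and 6.69 in *lal-/-* cells. These groups overlap, and the interval of its log2 fold change ran from -0.39 to 0.71. The *lal+/+* mean of *Adk* (6.46) lay under the limit set by the silent probe sets there (6.79).

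Of the 5 enzymes that salvage pyrimidine nucleosides and deoxynucleosides, *Tk2* was called higher and 0 were lower. All 5 had a positive fold change, as did 11909 of all 19938 genes. *Tk2*, the mitochondrial thymidine kinase, read 7.53 and 6.90 in *lal+/+* and 8.30 and 8.35 in *lal-/-* cells. Its log2 fold change was 1.11 (SE 0.21, adjusted p = 0.00735 from limma), and without *lal+/+* replicate 2, the lower of the wild type arrays, it was 0.79 and no longer called. The cytosolic *Tk1* read 7.98 and 8.06 in *lal+/+* and 8.23 and 8.24 in *lal-/-* cells and did not pass (0.21, adjusted p = 0.232). A second and dimmer *Tk1* probe set read 7.19 and 7.79 in *lal+/+* and 7.67 and 7.63 in *lal-/-* cells. Its genotypes overlap, and it gave 0.16. *Uck1*, a uridine-cytidine kinase, read 5.84 and 6.09 in *lal+/+* and 6.82 and 6.98 in *lal-/-* cells (0.94, SE 0.14, adjusted p = 0.00303). It stayed just under the fold threshold and passed it without *lal+/+* replicate 2 (1.06) or without *lal-/-* replicate 1 (1.01). Its paralog *Uck2* (0.29, adjusted p = 0.123) did not pass and *Dck*, the deoxycytidine kinase (0.41, adjusted p = 0.0413), passed on the p alone. In *lal+/+* cells the means of *Uck1* (5.96) and *Uck2* (6.47) lay under the limit set by the silent probe sets (6.79).

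De novo purine synthesis gave no call in either direction. All 6 enzymes from PRPP to IMP had a log2 fold change below 0, as did 8029 of all 19938 genes. Their median was -0.40, but only *Paics* came near the fold threshold. *Paics*, a bifunctional enzyme of the later steps, read 10.48 and 10.64 in *lal+/+* and 9.54 and 9.64 in *lal-/-* cells (log2 fold change -0.97, SE 0.13, adjusted p = 0.00165 from limma). This value rested on the scaling of the arrays. It was -0.53 (adjusted p = 0.0168) with the values as deposited and -0.35 (adjusted p = 0.0913) with all arrays set to a common median. *Paics* passed the fold threshold without *lal+/+* replicate 1 (-1.05) and without *lal-/-* replicate 2 (-1.02).

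*Ppat*, the amidotransferase that commits PRPP to the pathway, read 8.43 and 7.91 in *lal+/+* and 8.04 and 7.97 in *lal-/-* cells, so that the groups overlap (-0.17, adjusted p = 0.540). In the RefSeq annotation *Ppat* and *Paics* run in opposite directions and their starts lie 276 bases apart, so that both genes overlap at their 5' ends. *Adsl*, adenylosuccinate lyase (-0.46, adjusted p = 0.0433), and *Atic*, the enzyme of the last steps (-0.43, adjusted p = 0.0324), passed on the p alone. Neither kept it when any 1 of the arrays was left out. With a common median they were -0.35 and -0.055, and with the values as deposited -0.53 and -0.23. *Pfas* (-0.36) and *Gart* (-0.028) did not pass, and *Pfas* lay under the silent 95th percentile in both genotypes. *Ppat* turned positive with a common median (0.27) and with the values as deposited (0.088), and *Gart* turned positive with a common median (0.088), so a common direction of the 6 genes is not given by every scaling.

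PRPP itself is made by the PRPP synthetases. *Prps2* was the only gene called lower, at 7.66 and 7.003 in *lal+/+* and 6.41 and 6.17 in *lal-/-* cells (-1.04, SE 0.22, adjusted p = 0.0129 from limma). The *lal-/-* arrays both lay below the *lal+/+* arrays, but the *lal+/+* arrays were 0.66 apart. The *lal-/-* mean of *Prps2* (6.291) lay just above the silent 95th percentile there (6.286), and *lal-/-* replicate 2 lay under it. The size of its fold is therefore limited by this floor. The call was lost with a common median (-0.94), without *lal+/+* replicate 1 (-0.71) and without *lal-/-* replicate 2 (-0.92). *Prps1* read 8.99 and 8.59 against 8.09 and 8.51 and did not pass (-0.49, adjusted p = 0.108). *Prpsap1*, a partner protein of the synthetases, did not pass either (-0.083).

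Past IMP the 3 measured genes of the list had positive values, again without a call, while *Adss1*, a paralog of *Adss* from the longer list given further on, was called higher (2.34). *Adss*, on the way to AMP, had a log2 fold change of 0.31 (interval 0.02 to 0.60). It was 0.79 with the values as deposited and 0.97 with a common median. *Gmps*, on the way to GMP, was 0.086, and *Impdh1* was 0.27 with a level under the silent 95th percentile in both genotypes. Of 5 enzymes that interconvert or break down purine nucleotides and bases, 2 were called higher. *Ampd3*, an AMP deaminase that returns AMP to IMP, read 7.51 and 7.10 in *lal+/+* and 8.84 and 8.71 in *lal-/-* cells (1.47, SE 0.16, adjusted p = 8.44e-04 from limma). Its relative *Ampd2* read 6.27 and 6.17 in *lal+/+*, under the silent 95th percentile, and 7.39 and 7.22 in *lal-/-* cells (1.09, SE 0.13, adjusted p = 0.00109). Both calls held in 14 alternative settings and were lost in an ordinary linear model, which called 0 genes. Many of the 14 settings leave the fold unchanged. *Gda*, guanine deaminase, passed on the p alone (0.47, adjusted p = 0.0258 from limma) and reached 1.05 with a common median. *Ada*, adenosine deaminase, and *Ak1*, an adenylate kinase, differed by -0.0038 and 0.0053, with intervals of -0.34 to 0.34 and -0.39 to 0.40. *Ak1* lay under the silent 95th percentile in both genotypes, so little signal stands behind its interval.

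The pyrimidine route had 0 calls among 5 genes. *Cad*, the enzyme of its opening steps (-0.13), *Dhodh*, the mitochondrial dehydrogenase (-0.014), and *Umps*, which makes UMP (0.42), did not pass. The intervals of *Cad* (-0.49 to 0.22) and *Dhodh* (-0.30 to 0.27) exclude a change of 2-fold at these probe sets, but *Cad* lay under the silent 95th percentile in both genotypes and *Dhodh* did so in *lal+/+* cells, so little signal stands behind these intervals. The CTP synthetases went apart in value. *Ctps2* read 8.71 and 8.56 in *lal+/+* and 9.23 and 9.12 in *lal-/-* cells (0.54, adjusted p = 0.0193 from limma), and 1.12 with a common median. *Ctps* was -0.27 (adjusted p = 0.170 from limma). It lay under the silent 95th percentile in both genotypes, so little signal stands behind its value. The difference between them was not tested.

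Set side by side, 2 of 8 salvage enzymes and 0 of 14 measured de novo enzymes were called higher, and 0 of each were called lower, against 7.56% and 3.24% of all genes. The median log2 fold change was 0.63 for salvage and -0.081 for de novo enzymes. Without *Hprt* the 7 other salvage enzymes had a median of 0.41 and 1 call. All 8 salvage enzymes and 5 of 14 de novo enzymes had a positive fold change, as did 11909 of all 19938 genes. In *lal+/+* cells the mean level of *Hprt*, *Uck1*, *Uck2* and *Adk* lay under the limit set by the silent probe sets (6.79). These are 4 of the 8 salvage enzymes, and 5 of the 14 de novo enzymes lay under it as well. In *lal-/-* cells, where the limit was lower (6.29), 0 of 8 and 4 of 14 lay under it. Part of this shift comes from the limit. *Adk* (6.62) and *Uck2* (6.76) in *lal-/-* cells still lay under 6.79, and *Dhodh* crossed with means of 6.42 in *lal+/+* and 6.41 in *lal-/-* cells. Little signal stands behind the *lal+/+* values of *Hprt*, *Uck1*, *Uck2* and *Adk*. Both *lal-/-* arrays lay above both *lal+/+* arrays in 7 of 8 salvage enzymes and in 4 of 14 de novo enzymes, and in 41.6% of all genes. They lay below in 0 of 8 salvage and 5 of 14 de novo enzymes, and in 24.1% of all genes. *Tk1* is counted as above by its brighter probe set, while the genotypes overlapped on its dimmer one. Under a common median the medians were 0.93 and 0.047, and with the values as deposited 0.75 and -0.13. The difference between the routes is a description of these lists and was not tested.

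**Figure D3:**
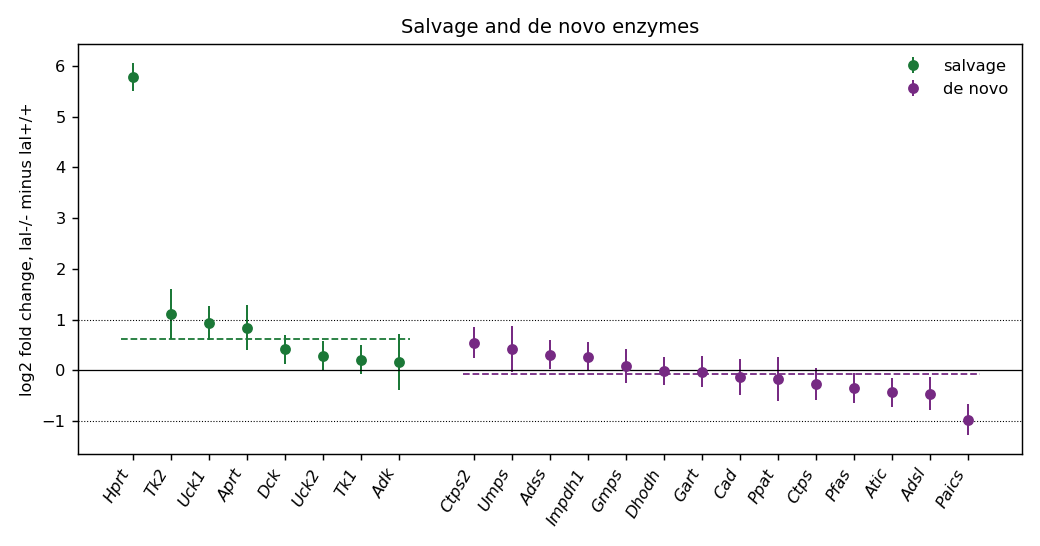
Log2 fold change of 8 salvage and 14 de novo enzymes, with bars for the 95% interval of the limma fit, a dashed line at the median of each route (0.63 and -0.081) and dotted lines at a fold of 2. The 8 salvage enzymes of the list lie above 0, while the 14 de novo enzymes lie on both sides of it between -0.97 and 0.54.

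Genes of DNA precursor synthesis held 3 of the 8 calls on the higher side. All 8 genes of this group had a positive fold change, with a median of 0.57, against 11909 positive values among all 19938 genes. *Rrm1* and *Rrm2* encode the large and the small subunit of ribonucleotide reductase, which makes deoxynucleotides. *Rrm1* read 7.25 and 6.89 in *lal+/+* and 8.29 and 8.53 in *lal-/-* cells (1.34, SE 0.16, adjusted p = 0.00122 from limma). *Rrm2* read 7.30 and 6.65 in *lal+/+* and 8.91 and 8.42 in *lal-/-* cells (1.69, SE 0.25, adjusted p = 0.00270). *Tyms*, thymidylate synthase, read 7.02 and 7.004 in *lal+/+* and 8.54 and 8.24 in *lal-/-* cells (1.38, SE 0.14, adjusted p = 6.50e-04). The groups did not overlap in these 3 genes, and the calls held in all alternative settings but the ordinary linear model. Many of these settings leave the fold unchanged. *Dtymk*, which phosphorylates dTMP, was 0.65 (adjusted p = 0.0107 from limma) and *Rrm2b*, the small subunit used outside S phase, was 0.50 (adjusted p = 0.0260). *Dtymk* passed the fold threshold with a common median.

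*Dut*, the dUTPase (0.27), *Dctd*, the dCMP deaminase (0.096), and *Samhd1*, which degrades deoxynucleotides (0.034), did not pass. *Samhd1* read 12.01 and 11.95 in *lal+/+* and 12.00 and 12.03 in *lal-/-* cells, with an interval of -0.25 to 0.32. Proliferation genes moved in the same arrays. Of 15 measured, 9 were higher and 0 lower, with a median of 1.12, for example *Cdk1* (2.49) and *Top2a* (1.66). Their mean level was 7.37 and 7.27 in *lal+/+* and 8.43 and 8.46 in *lal-/-* cells. *Pcna* (-0.23) and *Mcm6* (0.086) of that list did not pass, and its part in the rise of *Rrm1*, *Rrm2* and *Tyms* was not tested.

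The windows upstream of *Rrm1* and *Rrm2* are shown because both encode subunits of the same enzyme and both were called. They lie at chr7:102441445-102441694 (plus strand) and chr12:24708004-24708253 (plus strand) of GRCm38.p6, from RefSeq.
Rrm1: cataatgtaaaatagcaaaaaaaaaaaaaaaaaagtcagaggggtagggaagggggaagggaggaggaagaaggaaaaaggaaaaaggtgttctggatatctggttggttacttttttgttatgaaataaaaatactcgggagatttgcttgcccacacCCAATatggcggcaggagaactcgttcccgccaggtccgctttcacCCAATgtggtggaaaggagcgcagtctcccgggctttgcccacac
Rrm2: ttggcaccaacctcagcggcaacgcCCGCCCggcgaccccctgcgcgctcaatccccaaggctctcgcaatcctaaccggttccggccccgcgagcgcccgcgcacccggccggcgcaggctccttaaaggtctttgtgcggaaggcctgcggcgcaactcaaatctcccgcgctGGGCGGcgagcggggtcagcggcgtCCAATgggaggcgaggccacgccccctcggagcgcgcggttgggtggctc
The capitals mark matches to a CCAAT box (CCAAT or ATTGG) and a GC box. *Rrm1* holds 2 CCAAT boxes and no GC box, and *Rrm2* holds 1 CCAAT box and 2 GC boxes.

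Of the 45 measured genes 42 had such a window, and some genes have several. A GC box was found in 31 of them (73.8%), against 35.4% of 27025 genes with a window of the same length. A CCAAT box was found in 16 (38.1%, against 37.5%) and the E-box CACGTG in 6 (14.3%, against 6.86%). An E2F motif, spelled TTTCCCGC, TTTCGCGC, TTTGCCGC or TTTGGCGC and read on both strands, was found in 1 (2.38%, against 2.16%), that of *Ppat*, which holds 2 matches, of which 1 overlaps a GC box. Among the 8 genes called higher, 6 held a GC box, 3 a CCAAT box and 0 the E2F letters. A match is only a description of these letters.

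Among 3 nucleoside monophosphate and diphosphate kinases, *Cmpk1*, the UMP and CMP kinase, was higher. It read 10.80 and 10.53 in *lal+/+* and 11.75 and 11.81 in *lal-/-* cells (1.11, SE 0.14, adjusted p = 0.00135 from limma), and just missed the fold threshold without *lal+/+* replicate 2 (0.98). *Nme1*, a nucleoside diphosphate kinase, read 9.66 and 9.65 in *lal+/+* and 8.66 and 8.72 in *lal-/-* cells. Its log2 fold change of -0.96 (SE 0.12, adjusted p = 0.00129) lay just under the threshold. As for *Paics* it rested on the scaling, with -0.54 (adjusted p = 0.0162) in the values as deposited and -0.36 (adjusted p = 0.0920) with a common median. The neighbouring and closely related *Nme2* read 7.61 and 8.41 against 7.66 and 7.47 on its own probe set and did not pass (-0.45, adjusted p = 0.233). A brighter probe set that names *Nme2* and *Dscaml1*, and so was not tested, read 12.28 and 12.31 in *lal+/+* and 10.90 and 11.04 in *lal-/-* cells, a difference of -1.32. *Nme1* and *Nme2* are paralogs with closely similar sequences, so their probe sets may share signal.

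The folate enzymes had 0 calls among 4 genes. The mitochondrial enzymes *Mthfd2* and *Shmt2* had positive values and the cytosolic *Mthfd1* and *Shmt1* negative ones. *Mthfd2* read 7.51 and 7.39 in *lal+/+* and 8.17 and 8.33 in *lal-/-* cells (0.80, SE 0.13, adjusted p = 0.00413 from limma), and 1.17 with a common median, where it was called. *Shmt2* was 0.56 (adjusted p = 0.0484). *Mthfd1* read 6.58 and 6.49 in *lal+/+* and 5.93 and 5.95 in *lal-/-* cells (-0.60, SE 0.12, adjusted p = 0.01001), and *Shmt1* was -0.16 (adjusted p = 0.447). *Shmt1*, *Shmt2* and *Mthfd1* lay under the silent 95th percentile in both genotypes, so little signal stands behind their values. The difference between the mitochondrial and the cytosolic enzymes was not tested.

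Further genes of the same metabolism were taken from a list of 71, of which 61 were measured. Of these, 9 were higher (14.8%), 1 was lower (1.64%) and 51 were not called, against 7.56% higher and 3.24% lower of all genes. The median of the list was 0.13. The higher genes were led by *Upp1*, uridine phosphorylase, which releases uracil from uridine (2.90, SE 0.14), *Ggh*, the hydrolase that trims folate polyglutamates in the lysosome (2.67, SE 0.25), *Nt5c3*, a pyrimidine nucleotidase (2.56, SE 0.24), and *Xdh*, which oxidizes hypoxanthine and xanthine to uric acid (2.40, SE 0.13). Their adjusted p was at most 4.05e-04 from limma. *Ggh* had a mean of 5.75 in *lal+/+* cells, under the limit set by the silent probe sets there (6.79). The size of its fold therefore rests on this floor. Of the 61 genes, 37 lay under that limit in *lal+/+* cells and 25 lay under the limits of both genotypes, so little signal stands behind these levels. The lower gene was *Slc19a1*, the reduced folate carrier of the plasma membrane. It read 8.49 and 8.93 in *lal+/+* and 7.19 and 7.25 in *lal-/-* cells (-1.49, SE 0.17, adjusted p = 8.79e-04 from limma). With the probe sets of each gene averaged, 0 genes of this list were called lower, so the call of *Slc19a1* was lost.

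Some of these genes, named after their values were seen, bear on the routes set side by side above. *Adss1*, the paralog of *Adss* on the step from IMP towards AMP, was called higher, at 6.75 and 6.78 in *lal+/+* and 9.26 and 8.95 in *lal-/-* cells (2.34, SE 0.14, adjusted p = 1.06e-04 from limma). On the salvage side *Uprt*, named for uracil phosphoribosyltransferase, was -0.91 (adjusted p = 0.00904 from limma). *Mtap*, which salvages methylthioadenosine, was -0.56 (adjusted p = 0.0624) and *Dguok*, the mitochondrial deoxyguanosine kinase, -0.32 (adjusted p = 0.102). *Uckl1*, a uridine kinase, was called higher (1.11). So was *Pnp*, listed with the breakdown and salvage of purines (1.22, adjusted p = 0.00344 from limma). The positive values of the 8 salvage enzymes and the lack of a call among the 14 de novo enzymes therefore hold for those lists and not for every gene of the routes. The *lal+/+* means of *Adss1* (6.76) and *Uckl1* (6.63) lay under the limit set by the silent probe sets there (6.79). *Mtap* lay under the limit in both genotypes, so little signal stands behind its value.

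By step, the breakdown and salvage of purines held 2 higher genes of 8 and the same steps of pyrimidines 2 of 8, nucleotidases held 3 of 10, the partners of purine synthesis held 1 of 2 (*Adss1*), and the folate carriers and glutamate-chain enzymes held 1 higher and 1 lower of 7. Of 8 further nucleotide kinases, 5 nucleoside transporters, 7 genes of the folate cycle and 6 of serine and glycine supply, 0 were called. These steps hold few genes each, and the shares over all genes were 7.56% higher and 3.24% lower.

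An ordinary linear model without moderated variances called 0 of the 45 genes, with an adjusted p of 0.0507 for *Hprt*, the lowest among them, and 23 had an unadjusted p under 0.05. Of the 9 limma calls, 6 held in each of the 14 other alternative settings, those of *Hprt*, *Ampd2*, *Ampd3*, *Rrm1*, *Rrm2* and *Tyms*. Many of these settings leave the fold unchanged, and without a fold threshold no call can be lost, so holding there says little. A fold can change only with another scaling, averaged probe sets or an array left out. The scaling of the arrays changed the counts. With a common median 13 genes were higher and 0 lower, and with the values as deposited 9 were higher and 1 lower. Over all genes the median was 0.085 after quantile normalization, 0.12 with a common median and -0.055 in the values as deposited, so small changes are relative to that shift.

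**Figure D4:**
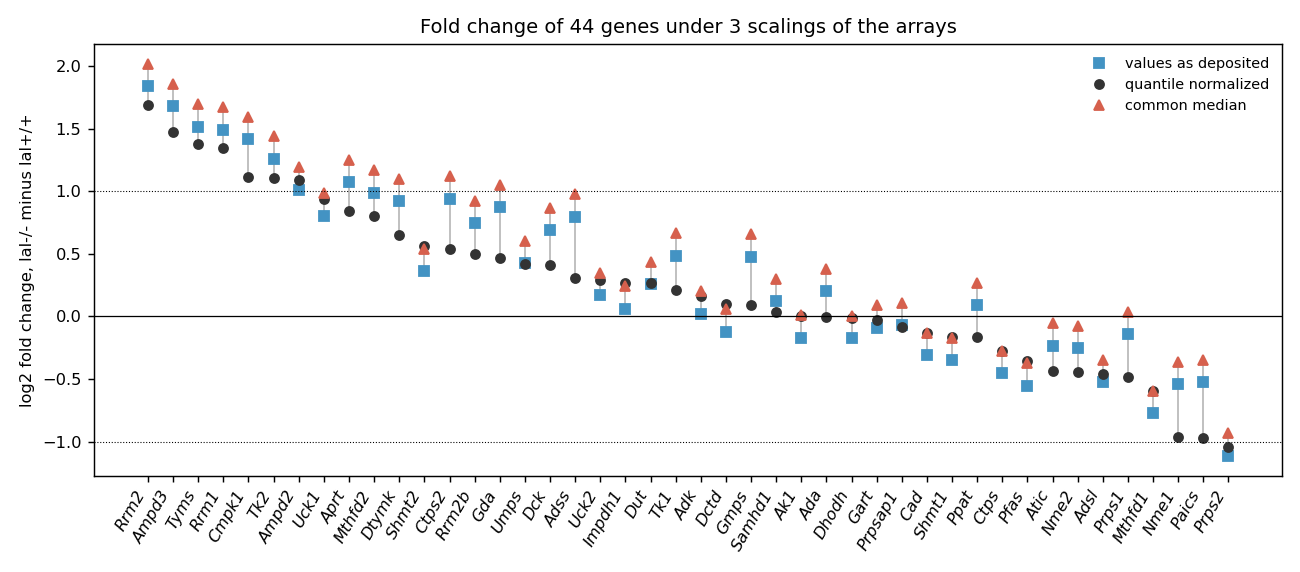
Log2 fold change of 44 genes (all measured genes but *Hprt*) with the values as deposited, after quantile normalization and with all arrays set to a common median, in the order of the quantile normalized value, with dotted lines at a fold of 2. *Paics* and *Nme1*, near -0.97 and -0.96 after quantile normalization, lie at -0.53 and -0.54 in the values as deposited, while *Rrm2*, *Ampd3*, *Tyms* and *Rrm1* lie above 1 in all 3 scalings.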

How the data were processed

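RNA of 4 samples was measured on 4 Affymetrix whole-transcript mouse arrays. The authors ran RMA in the Partek software and deposited log2 values for 35557 probe sets, while the processing notes name GCOS 1.1. Quantile normalization was applied because the array medians differed by 0.208, above the limit of 0.1. GEO's platform annotation lists 23410 probe sets, of which 21789 name 1 gene, and symbols were updated through RefSeq (91 kept as written). limma 3.58.1 in R 4.3.3 was fitted to these 21789 probe sets with genotype as the term, the tissue term of the authors' ANOVA having only 1 level here, with Benjamini-Hochberg adjustment. The probe set with the highest mean stands for a gene. The procedure was tested on simulated data. The genes and lists were chosen with earlier results of these data known. All 46 genes are accounted for, and from the longer list the 4 largest calls in each direction are named. With 2 arrays against 2 the number of arrays limits the precision. Alternatives were another scaling, a filter on dim probe sets, adjustment over all probe sets, trended variances, an ordinary linear model, a replicate block, the mean of probe sets, other thresholds and each array left out in turn. A crossed block was chosen after seeing the data.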

Additional observations from a re-analysis of the deposited data

How the results depend on the processing

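The count of genes called was 8 higher and 1 lower in the 45 genes, and 9 higher and 1 lower in the longer list. With all arrays set to a common median it was 13 higher and 0 lower, with 1 de novo enzyme higher. Without a fold threshold 17 and 6 of the 45 genes, 5 salvage enzymes higher, 1 de novo enzyme higher and 3 lower, and 18 and 6 genes of the longer list passed. At an adjusted p under 0.01 the lower count was 0, and with probe sets averaged per gene the lower count of the longer list was 0. An ordinary linear model without moderated variances gave 0 calls in each list and 0 among all genes, where 5691 genes and 23 of the 45 had an unadjusted p under 0.05. Leaving out each array in turn gave 7 to 9 higher and 1 lower of the 45 genes, 0 to 1 de novo enzymes lower, and 7 to 10 higher and 1 to 2 lower in the longer list. The lower gene was not the same throughout. Without *lal+/+* replicate 1 and without *lal-/-* replicate 2, *Prps2* fell under the fold threshold (-0.71 and -0.92) and *Paics* passed it (-1.05 and -1.02). Among all genes 1508 were higher and 646 lower (70.0% higher), 2619 and 467 (84.9%) with a common median, 3938 and 1963 without a fold threshold. The replicate block gave 8 higher and 1 lower of the 45 genes and changed no call, and neither did the crossed pairing, which gave 8 and 1. Neither block alters a fold. The deviations of same-numbered arrays correlated at -0.175. With 2 arrays a group the deviations of a group mirror each other, so this value cannot settle whether the numbers pair the arrays. Signs turned in genes that were not called. With a common median *Prps1* was 0.035, *Prpsap1* 0.11, *Ppat* 0.27, *Gart* 0.088, *Ada* 0.38 and *Dhodh* 0.0057. With the values as deposited *Ppat* was 0.088, *Ada* 0.20, *Ak1* -0.17 and *Dctd* -0.12. Leaving out each array in turn gave *Ppat* -0.43 to 0.093, *Gart* -0.11 to 0.056, *Gmps* -0.061 to 0.23, *Adk* -0.20 to 0.52, *Ada* -0.14 to 0.13, *Ak1* -0.21 to 0.22, *Cad* -0.30 to 0.033, *Dhodh* -0.045 to 0.018 and *Dctd* -0.059 to 0.25. The cause of these turns was not tested. The levels of 9 of the 45 genes lay under the 95th percentile of silent probe sets in both genotypes, which limits what can be seen of them.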
